A study of Mus musculus with 48 samples.

Results

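Gonadotropin-releasing hormone (GnRH) neurons of young female mice exposed before birth to dihydrotestosterone (DHT) were described through 6 pairs of libraries, each an immunoprecipitate (IP) of tagged ribosomes and the supernatant depleted of it. These 12 libraries, titled as young DHT in both fractions and joined by replicate number, were chosen from the 48 of the series. The mice came from males homozygous for GnRH CRE bred to females homozygous for a floxed-stop-floxed L10a-GFP allele, so ribosomal protein L10a carries GFP where Cre has acted. RNA came from punches of the preoptic area. The 12 young vehicle and 12 adult DHT libraries, of the same genotype and fractions, were used where enrichment is compared, and 1 IP and 1 supernatant library of young mice with the floxed allele and no Cre show what the IP collects without tagged ribosomes. Cre follows the GnRH gene, so a cell that used that gene at any time would carry the tag. The replicates are labelled biological, but the labels do not say how many animals gave each, and the p-values reflect only the variation among these libraries. Ages are given only as young and adult. The series design calls the mice female, while the wording of the labels on sex is unclear and also mentions both sexes.

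GnRH neurons are a small scattered population whose peptide drives the release of gonadotropins from the pituitary. Kisspeptin acts on them through its receptor, and most effects of ovarian and androgenic steroids on them are relayed by other neurons. During development they arise in the nasal placode and migrate into the forebrain. In a ribosome pull-down, a transcript higher in the IP is either used by the tagged cells or kept by the beads, and only material without the tag separates these cases.

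Library totals were 34761128 to 45474339 counts in the IP and 28136004 to 43667140 in the supernatant. Of the tested genes, 2.56% ± 1.25 had no read in an IP library and 0.0526% ± 0.0304 in a supernatant library (SD, n = 6 each), higher in the IP in 6 of 6 pairs (exact sign-flip permutation test over pairs, two-sided, p = 0.031, the smallest that 6 pairs allow). Across genes the median correlation of log2 CPM (the count scaled to the library total) between replicates was 0.902 in the IP and 0.982 in the supernatant. Replicates 4 to 6 carry sample numbers from the end of the series, as do young vehicle replicates 5 and 6. The last 10 sample numbers are these libraries in both fractions.

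Gnrh1, the hormone's gene (chr14:67745181-67749439, plus strand, mm10), marked the IP in every pair. It stood at 2911, 3095, 3295, 3825, 2816 and 3942 CPM in IP replicates 1 to 6, against 23.13, 25.25, 40.18, 33.75, 20.47 and 34.97 CPM in the supernatants. The libraries did not overlap, and the means were 3314 ± 472 CPM for IP libraries and 29.6 ± 7.77 CPM in the supernatant (SD, n = 6 each). The log2 fold change, IP minus supernatant, was 6.87 ± 0.12 (SE; edgeR adjusted p = 2.36e-09). Without Cre the values were 61.6 CPM for the IP and 38.2 CPM in the supernatant, a log2 ratio of 0.69 from 1 pair. Because these are bulk libraries, more tagged cells and more RNA per cell cannot be told apart.

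Genes whose transcripts differed between fractions numbered 4426 of 15515 tested (28.5%; edgeR quasi-likelihood test with pairs as a block, adjusted p below 0.05). Of these, 2262 were higher in the IP (14.6%) and 2164 lower (13.9%). At least 2-fold changes were 312 higher (2.01%) and 581 lower (3.74%). The IP libraries lay wholly above the supernatants for 1091 genes (7.03%) and wholly below for 1195 (7.7%).

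The pair without Cre gives a background for that count. Among all tested genes, 1745 (11.2%) were at least 2-fold higher in its IP and 2140 (13.8%) at least 2-fold lower. Among the 312 genes higher in young DHT, 206 were also at least 2-fold higher without Cre, 66% (95% exact interval 60.5 to 71.3). Of the 581 lower genes, 381 were lower there too, 65.6% (61.6 to 69.4). Leaving these genes out leaves 106 higher and 200 lower, an alternative chosen after the data had been seen. At a rise of 4-fold or more, 47 of 88 genes were also raised without Cre, 53.4% (42.5 to 64.1). The intervals cover counting error only.

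**Figure D1:**
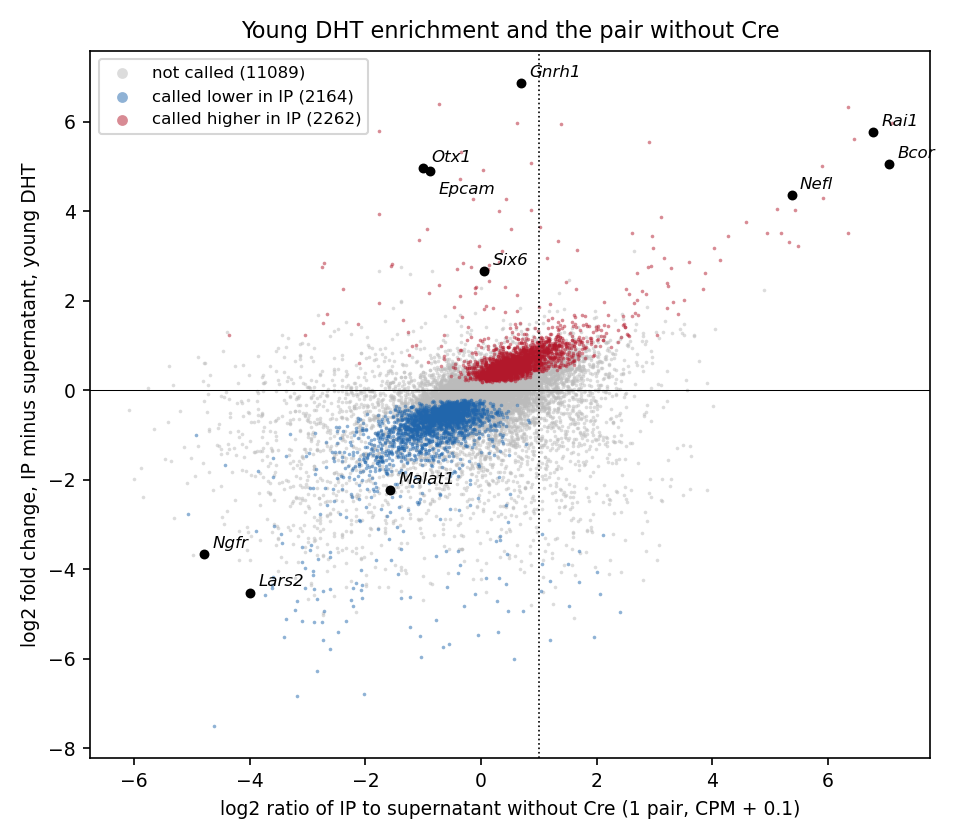
Log2 fold change between IP and supernatant of young DHT mice (vertical) against the log2 ratio of IP to supernatant in the pair without Cre (horizontal), each dot a tested gene, coloured by call. Gnrh1, Otx1, Epcam and Six6 lie high and left of the dotted line at a 2-fold ratio, while Rai1, Bcor and Nefl lie high on both axes.

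Transcripts with a large rise and under 2-fold without Cre began with Gnrh1. Rab25, a small GTPase of epithelial vesicle recycling, had 9.71 (lowest), 13.1 (median) and 13.8 CPM (highest) in the IP, against 0.0576, 0.0975 and 0.373 CPM in the supernatant. It changed on the log2 scale by 6.39 ± 0.48 (edgeR adjusted p = 2.62e-05) and its ratio without Cre was -0.72. The fractions did not overlap in any of the 11 genes described here for this class, a separation that goes with their choice as large rises in 6 of 6 pairs.

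Otx1, a homeobox factor of forebrain development, had 20.4, 30.02 and 49.8 CPM in the IP (lowest, median, highest), against 0.521, 1.04 and 1.86 CPM in the supernatant (log2 fold change 4.97 ± 0.33, edgeR adjusted p = 1.44e-05; -1.01 without Cre). Six6, a homeobox factor of eye and hypothalamus, changed by 2.66 ± 0.27 (edgeR adjusted p = 0.000125; 0.06 without Cre), with 34.3 to 70.7 CPM for IP libraries and 2.76 to 12.8 CPM in the supernatant. For both homeobox genes the IP libraries lay wholly above the supernatants, a separation that goes with their choice by a large rise or a small adjusted p.

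Beyond those, Tstd1 changed by 5.96 ± 0.33 on the log2 scale. Arg1, the arginase of the urea cycle, changed by 4.92 ± 0.39. Epcam, an adhesion molecule of epithelia, changed by 4.90 ± 0.37, and Tmprss6, a transmembrane serine protease, by 4.29 ± 0.29. Krt8, an epithelial keratin, changed by 4.02 ± 0.30, and the tight-junction claudin Cldn9 by 4.00 ± 0.35. Gng8, a G protein gamma subunit, changed by 3.60 ± 0.18, and Pirt, a regulator of TRP channels, by 3.24 ± 0.43. For these the edgeR adjusted p ran from 4.58e-06 for Gng8 to 0.000476 for Pirt, and ratios without Cre from -0.88 for Epcam to 0.87 for Krt8.

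**Figure D2:**
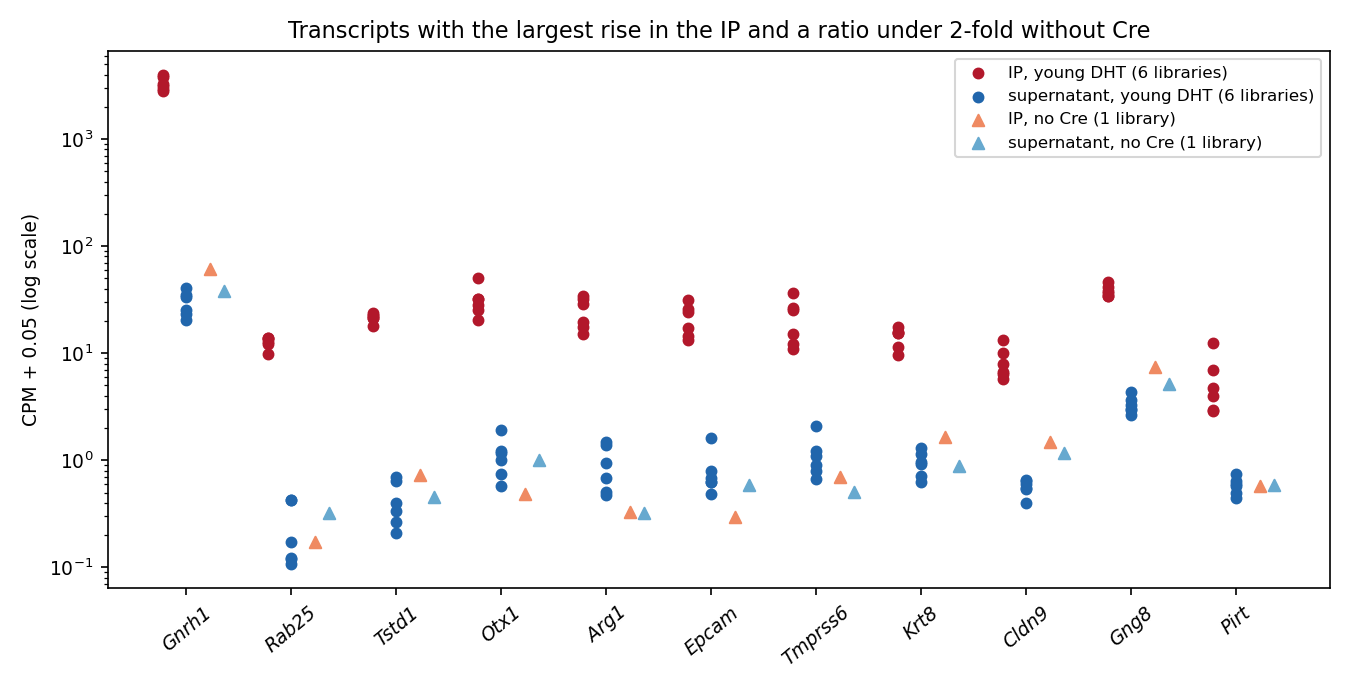
CPM (log scale, with 0.05 added so that low values are drawn) of 11 genes with a large rise that stayed under 2-fold without Cre, as 6 IP libraries (red), 6 supernatant libraries (blue) and the pair without Cre (triangles). In each gene the red points stand above the blue, and both triangles stand near the blue.

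Of the 17 tested members of the epithelial junction list, 8 were higher (Rab25, Epcam, Krt8, Ap1m2, Cldn7, Cldn3, Spint1, Spint2), none was lower and 9 were not called, with a median log2 fold change of 0.99 against -0.077 over all genes. Among all tested genes, 14.6% were higher and 13.9% lower. A further 5 members of the list were too low to be tested. Per library the summed CPM of the list was 155.6 to 284.5 in the IP and 68.5 to 90.57 in the supernatant; without Cre it was 76.6 and 60.9. The promoters of 3 of these, shown because the genes moved together, follow as the 250 bases before the RefSeq transcript start (RefSeq, GRCm38.p6), with CAGGTG or its reverse complement CACCTG in capitals. The motif was chosen after the sequences had been seen.

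Epcam, chr17:87635729-87635978, plus strand: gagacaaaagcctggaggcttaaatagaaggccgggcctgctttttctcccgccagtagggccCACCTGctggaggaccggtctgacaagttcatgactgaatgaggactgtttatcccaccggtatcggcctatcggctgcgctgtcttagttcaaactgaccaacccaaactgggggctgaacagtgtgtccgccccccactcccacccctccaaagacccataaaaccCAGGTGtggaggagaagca

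Krt8, chr15:102004343-102004592, minus strand: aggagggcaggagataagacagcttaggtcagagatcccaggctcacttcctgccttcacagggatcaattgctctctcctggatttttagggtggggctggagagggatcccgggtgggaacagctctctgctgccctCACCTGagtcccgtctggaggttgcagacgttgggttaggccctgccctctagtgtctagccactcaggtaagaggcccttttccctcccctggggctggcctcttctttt

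Rab25, chr3:88548280-88548529, minus strand: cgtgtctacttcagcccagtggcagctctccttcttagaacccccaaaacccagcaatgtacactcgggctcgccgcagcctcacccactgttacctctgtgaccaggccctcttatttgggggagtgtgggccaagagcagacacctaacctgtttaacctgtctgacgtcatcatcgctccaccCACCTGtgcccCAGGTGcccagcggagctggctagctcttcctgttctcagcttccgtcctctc

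This hexamer, an E-box that SNAIL and ZEB repressors bind in epithelial genes, was present in 6 of the 8 promoters of called members (75%), in 5 of the 6 promoters of the other members of the list with an entry (83.3%) and in 19.4% of 27025 genes with a promoter in the table. Otx1 and Gnrh1 are not in that table.

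A GnRH neuron list of 20 markers had 6 higher members, 3 lower and 11 not called, with a median of 0.060 that changed sign in 5 of 16 alternatives. Over all tested genes 14.6% were higher and 13.9% lower. The higher ones were Gnrh1, Six6, Nhlh2, Isl1, Kiss1r and Gal. Nhlh2, a basic helix-loop-helix factor, changed by 1.40 ± 0.21 (adjusted p = 0.00091, edgeR) with 1.16 without Cre. Kiss1r, the kisspeptin receptor, changed by 0.83 ± 0.20 (edgeR adjusted p = 0.0108), with 0.83 without Cre. It stood at 20.5 ± 6.75 CPM for IP libraries and 11.3 ± 1.05 CPM in the supernatant. With replicates 4 to 6 alone Kiss1r was not called (edgeR adjusted p = 0.225). Isl1, a homeobox factor, changed by 0.57 ± 0.09 (0.22 without Cre).

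Gal, the galanin peptide, changed by 0.44 ± 0.13 (edgeR adjusted p = 0.0294; 0.35 without Cre), and without replicate 1, 2, 5 or 6 the adjusted p reached up to 0.0751. Gal was also not called with no replicate block (edgeR adjusted p = 0.11), over all 46 libraries (0.273 with no block, 0.0984 with it) or in either replicate set alone (0.123 in replicates 4 to 6, 0.148 in replicates 1 to 3). The lower members were Fgfr1, an FGF receptor at -1.32 ± 0.19 (-0.97 without Cre), Nell2 at -1.002 ± 0.12 (-0.98 without Cre) and the homeobox factor Six3 at -0.48 ± 0.08 (-0.30 without Cre).

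Esr1, the estrogen receptor alpha gene, changed by -1.07 ± 0.26 (edgeR adjusted p = 0.0137, and -1.29 without Cre), and without replicate 3 its adjusted p was 0.0503. Esr1 was also not called over all 46 libraries (edgeR adjusted p = 0.181 with no block, 0.123 with it). The same held with replicates 4 to 6 alone (edgeR adjusted p = 0.27). Pgr, the progesterone receptor, changed by 0.08 ± 0.25 (adjusted p = 0.843, edgeR); its sign turned in 3 alternatives. Of 18 steroid receptor genes tested, 1 was higher (Esrrg) and 7 lower, with a median of -0.57; Thra at -0.87 ± 0.08 and Esrra at -0.90 ± 0.10 were among the lower. Ratios without Cre were -1.11 and -1.12 for those 2 genes. The shares over all tested genes were 14.6% higher and 13.9% lower. Xist, the long noncoding RNA of X inactivation, had 4.11 ± 3.46 CPM for IP libraries and 3.04 ± 2.57 CPM in the supernatant and was not called (edgeR adjusted p = 0.317). Its supernatants had 3.412 to 7.438 CPM in replicates 4 to 6 and 0.8473 to 1.289 CPM in replicates 1 to 3.

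Neuropeptide genes had 4 higher members and 1 lower of 25, a share of higher calls near the 14.6% of all tested genes. Nts (neurotensin) changed by 0.67 ± 0.09 and Crh by 0.69 ± 0.16, with 0.68 and -0.64 without Cre. Cartpt changed by 0.38 ± 0.09 and Tac1 by 0.61 ± 0.15 (0.33 and 1.29 without Cre). With replicates 4 to 6 alone, Nts, Crh, Cartpt and Tac1 were not called (edgeR adjusted p = 0.0507, 0.168, 0.202 and 0.339). Over all 46 libraries with no block, Crh, Cartpt and Tac1 were not called (edgeR adjusted p = 0.133, 0.234 and 0.123). Cartpt was also not called with that block (edgeR adjusted p = 0.0728) or with replicates 1 to 3 alone (0.0631). The lower member was Penk. Among peptide and hormone receptors, 1 of 34 was higher, Kiss1r, and 2 were lower, Adcyap1r1 at -0.65 ± 0.15 and Igf1r at -0.97 ± 0.29. With replicate 2, 3 or 4 left out, the edgeR adjusted p of Igf1r reached up to 0.0808. In the pair without Cre, Adcyap1r1 had 33.32 CPM for the IP and 50.56 CPM in the supernatant, and Igf1r had 5.174 and 5.477 CPM.

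Secretory granule genes were mixed, with 5 higher and 5 lower of 18. Resp18 changed by 0.97 ± 0.12 and Pcsk1n, an inhibitor of a prohormone convertase, by 0.77 ± 0.09 (edgeR adjusted p = 0.000429 and 0.000337), with ratios of 0.46 and 0.79 without Cre. Vgf, a secreted granin, fell by 1.71 on the log2 scale and Ptprn by 1.09, with -1.94 and -1.25 without Cre. Of 31 homeobox factors, 5 were higher (Otx1, Six6, Meis1, Isl1, Pbx3) and 7 lower, with Pou3f1 at -1.37 ± 0.16. Pou3f1 had 47.06 CPM for the IP and 130.4 CPM in the supernatant without Cre. The share of higher homeobox factors is near that of all tested genes, of which 14.6% were higher and 13.9% lower.

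In the lists of synaptic signalling and ion channels, fewer members were called higher than lower, and lower calls were under 50% of each list. The shares over all tested genes were 14.6% higher and 13.9% lower. The glutamate list had 0 higher and 11 lower of 29 (edgeR), including Gria1 at -0.94 ± 0.09, Grin1 at -0.91 ± 0.14 and Grid1 at -2.57 ± 0.42. Vesicle machinery had 2 higher and 14 lower of 30, with Cplx2 at -1.27 ± 0.10 and Vamp2 at -0.61 ± 0.07. Summed, the vesicle list stood at 12610 to 15180 CPM for IP libraries and 14990 to 17830 CPM in the supernatant. In the pair without Cre, CPM in the IP and the supernatant were 43.79 and 85.03 for Gria1, 37.97 and 94.64 for Grin1 and 3.357 and 3.866 for Grid1. They were 88.33 and 180.3 for Cplx2 and 1907 and 2720 for Vamp2.

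The GABA list had 1 higher and 7 lower of 25; Slc32a1, the vesicular GABA transporter, had 5.14, 9.74 and 15.7 CPM in the IP (lowest, median, highest) against 46.4, 61.5 and 81.1 CPM in the supernatant (log2 fold change -2.60 ± 0.20, edgeR adjusted p = 3e-05; -1.98 without Cre). The fractions did not overlap, a separation that goes with the choice of this gene by its small adjusted p. Sodium, calcium and HCN channels had 0 higher and 7 lower of 29, with Scn2b at -1.80 ± 0.10, and potassium channels had 2 higher (Kcnn3, Kcnk1) and 5 lower of 29. Scn2b had 28.46 CPM for the IP and 83.74 CPM in the supernatant without Cre. Without Cre the list medians were -0.38 for vesicle machinery, -0.18 for the glutamate list, -0.41 for GABA, -0.03 for sodium, calcium and HCN channels and -0.22 for potassium channels.

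In the ribosomal, respiratory chain, translation, endoplasmic reticulum and proteasome lists, more members were called higher than lower. These counts are to be read beside 14.6% higher and 13.9% lower among all tested genes. Ribosomal protein genes had 68 higher and 0 lower of 81 (edgeR), with a median of 0.54 and a median of 0.35 without Cre. Rpl10a, which encodes the protein that was tagged, had 181 ± 29.0 CPM for IP libraries and 95.9 ± 11.2 CPM in the supernatant (log2 fold change 0.94 ± 0.08; 0.59 without Cre). Of 32 respiratory chain genes, 15 were higher and 1 lower (Sdhc), with Ndufs4 at 0.76 ± 0.07. Without Cre, Ndufs4 had 208.7 CPM for the IP and 130.6 CPM in the supernatant. Translation factors had 17 higher and 3 lower of 26. Medians in young DHT and without Cre were 0.27 and 0.15 for the respiratory chain and 0.36 and 0.15 for translation factors. They were 0.087 and 0.036 for the endoplasmic reticulum list and 0.16 and -0.061 for the proteasome list.

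The lower translation factors were Eef1a2, Eif3b and Eif4a1. Eef1a2, the elongation factor form of mature neurons and muscle, had 14.5, 24.7 and 34.6 CPM in the IP (lowest, median, highest) and 183, 191 and 225 CPM in the supernatant (log2 fold change -3.04 ± 0.17, edgeR adjusted p = 6.66e-06; -3.58 without Cre). The IP libraries lay wholly below the supernatants. Eif4g1, a scaffold of the cap complex, changed by 1.17 ± 0.10 with 1.15 without Cre. Genes of translocation and folding in the endoplasmic reticulum had 10 higher and 4 lower of 34, with Ssr4 at 0.78 ± 0.09. Without Cre, Ssr4 had 51.43 CPM for the IP and 32.92 CPM in the supernatant. Proteasome genes had 10 higher and 3 lower of 27, with Psma3 at 0.71 ± 0.07 and Psmd11 at -0.84 ± 0.09. Among all tested genes, 14.6% were higher and 13.9% lower. For the proteasome genes these values follow. The proteasome median was 0.16, and -0.037 in a fit of replicates 1 to 3 alone. Without Cre, Psma3 had 396.9 CPM for the IP and 256.3 CPM in the supernatant, and Psmd11 had 30.67 and 86.94 CPM.

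Markers of other cells were tested as lists, to be read beside 14.6% higher and 13.9% lower among all tested genes. Of 14 astrocyte genes, 1 was higher (S100b) and 7 lower, with Aldoc, a glycolytic aldolase, at -0.40 ± 0.07. Of 13 myelin genes 1 was higher (Aspa) and 2 lower, and of 11 oligodendrocyte precursor genes 1 was higher and 4 lower, with Sox10 at -1.32 ± 0.09. Microglia had 0 higher and 1 lower of 14 (Cx3cr1, edgeR adjusted p = 0.0446, up to 0.116 without 1 replicate), and endothelial and mural genes had 0 higher and 2 lower of 15. Summed microglia markers were 54.34 to 104.3 CPM for IP libraries and 67.78 to 139.6 CPM in the supernatant.

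Summed astrocyte markers were 1158 to 1463 CPM for IP libraries and 1496 to 2028 CPM in the supernatant, and summed endothelial and mural markers were 27.69 to 123.9 CPM and 31.3 to 137.1 CPM in the same order. No marker list of glial or vascular cells had more higher than lower members, and their part in the other results was not tested. List medians in young DHT and without Cre were -0.55 and -0.43 for astrocytes and -0.61 and -0.60 for precursors. They were -0.90 and -1.36 for endothelial and mural genes, -0.45 and -0.08 for microglia and -0.05 and -0.08 for myelin genes. Without Cre, Sox10 had 25.35 CPM for the IP and 95.45 CPM in the supernatant, and Aldoc had 530 and 685.6 CPM. Ependymal and choroid plexus genes had 2 higher (Rsph1, Dynlrb2) and 2 lower (Foxj1, Clic6) of 11. The calls of Acta2 in smooth muscle, Dynlrb2, Clic6 and the precursor gene Matn4 were each lost without some single replicates, with edgeR adjusted p of up to 0.0823, 0.0738, 0.0706 and 0.0777. The erythrocyte list had 3 tested members, none called, and its remaining 5 members were not tested. Immature neuron genes had 2 higher and 7 lower of 18, with Stmn2 at 0.61 ± 0.08 and Ncam1 at -1.40 ± 0.12. In the pair without Cre, Stmn2 had 878.8 CPM for the IP and 693.5 CPM in the supernatant, and Ncam1 had 65.6 and 156.2 CPM. Immediate early genes had 0 higher and 5 lower of 17 (edgeR), with Egr1 at -0.99 ± 0.13. Their median was -1.18 in replicates 4 to 6 and -0.068 in replicates 1 to 3. Egr1 had 114.4 CPM for the IP and 150.9 CPM in the supernatant without Cre. Medians in young DHT and without Cre were -0.19 and -0.11 for the immature neuron list and -0.56 and -0.40 for the immediate early list.

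**Figure D3:**
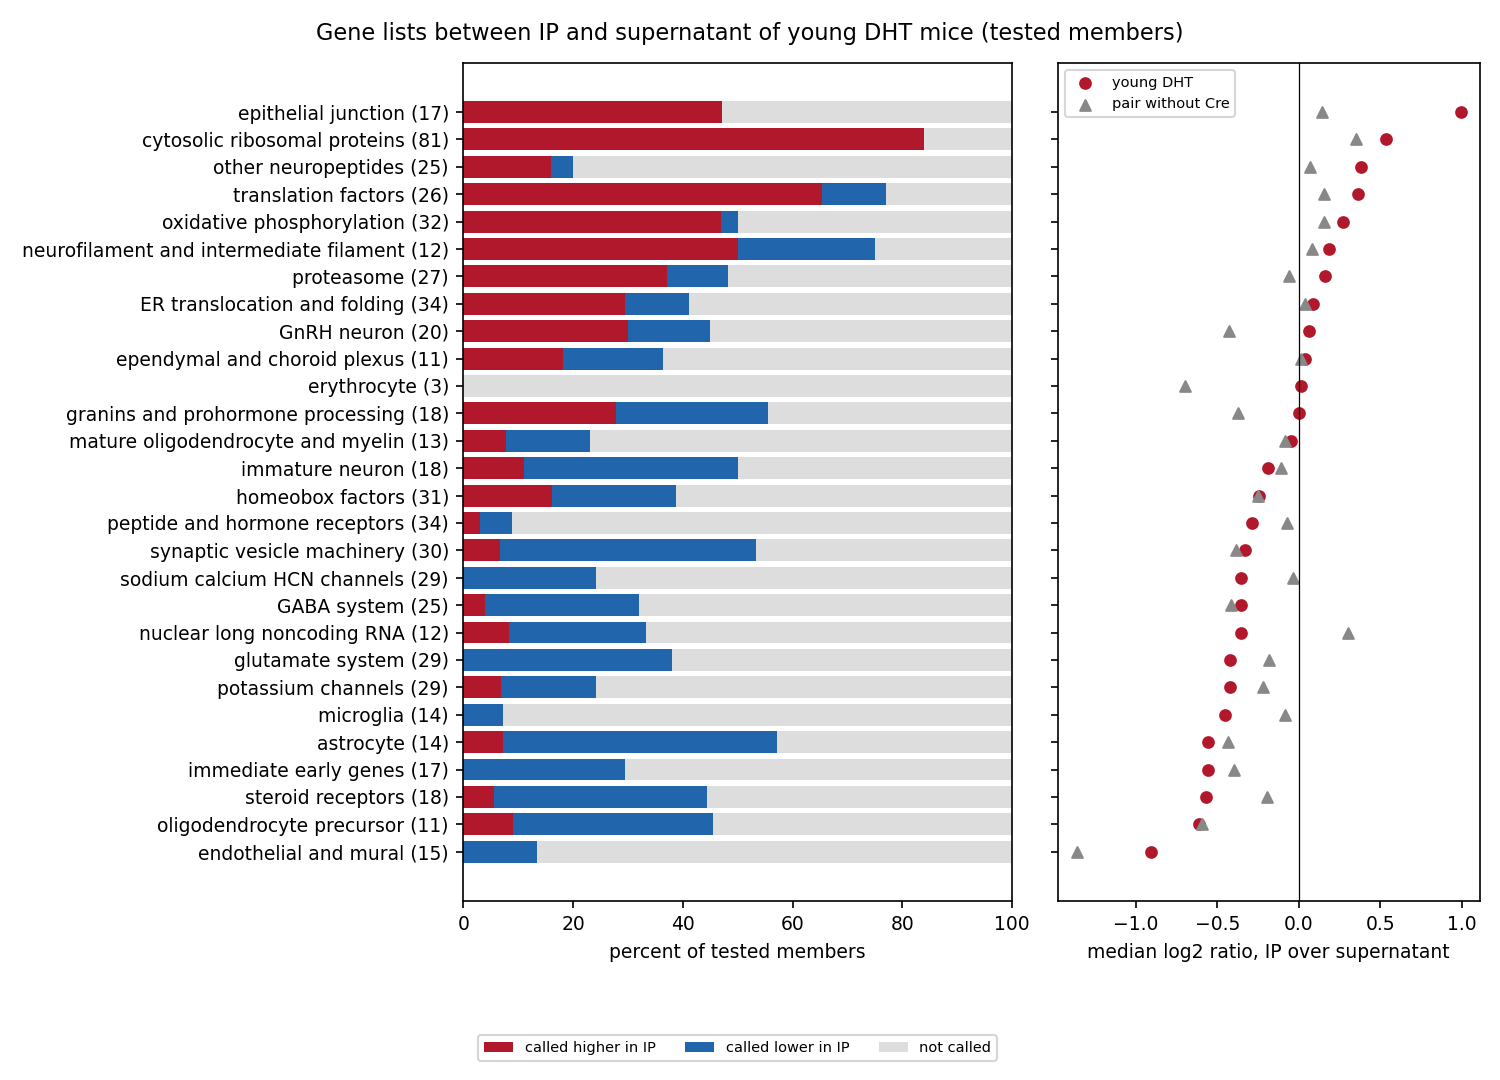
Share of tested members of each list (number tested in parentheses) that were called higher, called lower or not called in the IP of young DHT mice (left), and the median log2 ratio of IP to supernatant in young DHT (circles) and in the pair without Cre (triangles). The epithelial and ribosomal lists are on top. The vascular, oligodendrocyte precursor, steroid receptor, immediate early, astrocyte and microglia lists are at the bottom, and the myelin list lies between.

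The largest falls, among genes averaging 5 CPM or more in the supernatant and lower in 6 of 6 pairs, were those of Lars2, Foxc2, Ets1, Ngfr, Tmem132c, Eef1a2, Ptrf, Col1a1, Phyhip and Gabre. Lars2, a mitochondrial leucyl-tRNA synthetase, had 132, 236 and 431 CPM in the IP (lowest, median, highest) and 4882, 5180 and 7071 CPM in the supernatant (log2 fold change -4.52 ± 0.26, edgeR adjusted p = 7.11e-06; -3.99 without Cre). Ngfr, the low-affinity neurotrophin receptor, had 0.749, 1.38 and 3.65 CPM in the IP against 12.9, 19.95 and 25.1 CPM in the supernatant (-3.67 ± 0.40; -4.79 without Cre). In both genes the IP libraries lay wholly below the supernatants, a separation that goes with their choice as large falls in 6 of 6 pairs. Over all tested genes, this held for 7.7%. Foxc2 was called at an adjusted p of 0.0426 (edgeR) and lost its call without replicate 2, 4, 5 or 6, with an adjusted p of up to 0.11. The remaining falls ran from -4.08 ± 1.01 for Ets1, an ETS-family transcription factor, to -2.80 ± 0.52 for Gabre, a GABA-A receptor subunit; the fractions overlapped for Foxc2, Ets1, Tmem132c and Col1a1. Ets1 had 5.893 CPM in the IP of replicate 5, against 5.989 CPM in its supernatant. Its edgeR adjusted p was 0.122 with no replicate block, 0.228 over all 46 libraries with no block and 0.159 with replicates 4 to 6 alone, and 0.0657 with limma-voom.

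Long noncoding RNAs that are known mainly from the nucleus were set beside these. Malat1 fell by 2.22 on the log2 scale, at 759.5, 891 and 1332 CPM for IP libraries and 3126, 4727 and 6722 CPM in the supernatant (lowest, median, highest; edgeR adjusted p = 4.1e-05; -1.57 without Cre). Meg3 fell by 0.92 (0.06 without Cre) and Neat1 by 0.998 (-0.35 without Cre; adjusted p = 0.0545 without replicate 4), while Rian changed by 0.69 (0.43 without Cre). Of 12 tested members, 1 was higher and 3 were lower, beside 14.6% higher and 13.9% lower among all tested genes. The list median was -0.36, and 0.30 without Cre. By replicate set, the median was -0.78 in replicates 4 to 6 and 0.12 in replicates 1 to 3.

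Neurofilament genes were among the largest rises, and they rose in the pair without Cre as well. Nefl, the light chain, had 9936, 15206 and 20800 CPM in the IP (lowest, median, highest) and 695, 726 and 760 CPM in the supernatant (log2 fold change 4.37 ± 0.13, edgeR adjusted p = 1.47e-07), beside 30000 CPM for the IP and 723.5 CPM in the supernatant without Cre, a log2 ratio of 5.37. Nefh changed by 4.04 ± 0.24 (5.13 without Cre) and Nefm by 2.14 ± 0.17 (2.85 without Cre). In GENCODE M21 the span of Nefm on the minus strand contains Nefl (chr14:68083863-68089095, plus strand), and the library kit does not mark strand, so reads of one in the count of the other cannot be told apart. Prph, a filament of peripheral neurons, changed by 2.75 ± 0.50 with -0.17 without Cre. Of the 12 intermediate filament genes, 6 were higher and 3, the nuclear lamins Lmna, Lmnb1 and Lmnb2, were lower. The shares over all tested genes were 14.6% higher and 13.9% lower.

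The 6 genes that the naming rule gave for rises of at least 2-fold without Cre began with Yeats2. Yeats2, a reader of acylated histones, changed by 6.34 ± 0.27 (edgeR adjusted p = 2.47e-06; 6.34 without Cre), at 618, 916 and 1478 CPM for IP libraries and 7.69, 11.1 and 16.3 CPM in the supernatant. Rai1 changed by 5.76 ± 0.28 (6.78 without Cre), Bahcc1 by 5.98 ± 0.41 (7.11), Tnrc18 by 5.63 ± 0.53 (6.45), Bcor by 5.06 ± 0.68 (7.06) and Tcf20 by 5.02 ± 0.28 (5.89). In each the fractions did not overlap, a separation that goes with their choice as large rises in 6 of 6 pairs. Over all tested genes, the IP lay wholly above the supernatants for 7.03%.

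Transcript length differed between these classes, as taken from the longest coding transcript in GENCODE M21. The median was 1694 nt for the genes at least 4-fold higher and under 2-fold without Cre, 5846 nt for the genes at least 4-fold higher and at least 2-fold higher without Cre, and 3163 nt for all tested genes. Genes at least 2-fold lower had a median of 3940 nt and a GC content of 54.7%, against 50.4% for all genes. No test was made of these medians.

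Between replicates 4 to 6 and replicates 1 to 3 the enrichment itself differed for 58 of 15515 genes (0.374%), and 0 were higher in replicates 4 to 6 (edgeR; 1692 of all genes had an unadjusted p below 0.05; DESeq2 called 128 higher and limma-voom 5). All 58 were lower in replicates 4 to 6, 56 of them by at least 2-fold (0.361%). The ratios of the replicate sets did not overlap in any of the 58, a direction and separation that go with the call. How often the sets are separate over all tested genes was not counted, so nothing is drawn from that separation. The median ratio of the 58 genes was -0.22 in replicates 4 to 6 and 1.96 in replicates 1 to 3. Without 1 replicate, 8 to 55 genes were lower and 0 to 7 higher; without replicate 1, 2, 3 or 4 the counts of lower genes were 8, 15, 11 and 36.

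Of the 58 genes, 46 (79.3%, against 11.2% of all tested genes) were at least 2-fold higher in the IP without Cre. Their median ratio there was 2.05. That pair, like replicates 1 to 3, lies outside the last 10 sample numbers, and no pair without Cre lies within them. A likeness of these genes to the pair without Cre and a difference between the sets of sample numbers therefore cannot be told apart. In young vehicle mice, whose libraries are separate, 56 of the 58 were also lower in replicates 5 and 6 than in replicates 1 to 4, and 21 were called, with a median difference of -1.46; across all genes 47.9% were lower. Bcor had 85.35, 72.53 and 84.92 CPM in IP replicates 4 to 6, against 677.2, 544.8 and 603.0 CPM in IP replicates 1 to 3, a difference of -3.31 ± 0.17 (edgeR adjusted p = 0.000128). Its supernatants were 5.19 to 8.67 CPM throughout.

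Mn1 had 44.24, 58.49 and 64.09 CPM in IP replicates 4 to 6, against 1018, 534.3 and 713.1 CPM in IP replicates 1 to 3 (difference -3.80 ± 0.28, edgeR adjusted p = 0.000705). Prr12 differed by -3.52 (edgeR adjusted p = 0.0589 without replicate 1) and Nup98, a nucleoporin, by -3.13. Tet2, an enzyme that oxidises methylcytosine, differed by -3.12, and its call was lost without replicate 1, 2, 3, 5 or 6 (adjusted p up to 0.287). Slc13a4, a sulphate transporter, differed by -6.63, was not called without replicate 1 or 3 (adjusted p up to 0.168), and differed by 2.29 in young vehicle mice. Malat1 differed by -1.003 on that scale. Gnrh1 differed by 0.23 and was not called (edgeR adjusted p = 0.685).

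**Figure D4:**
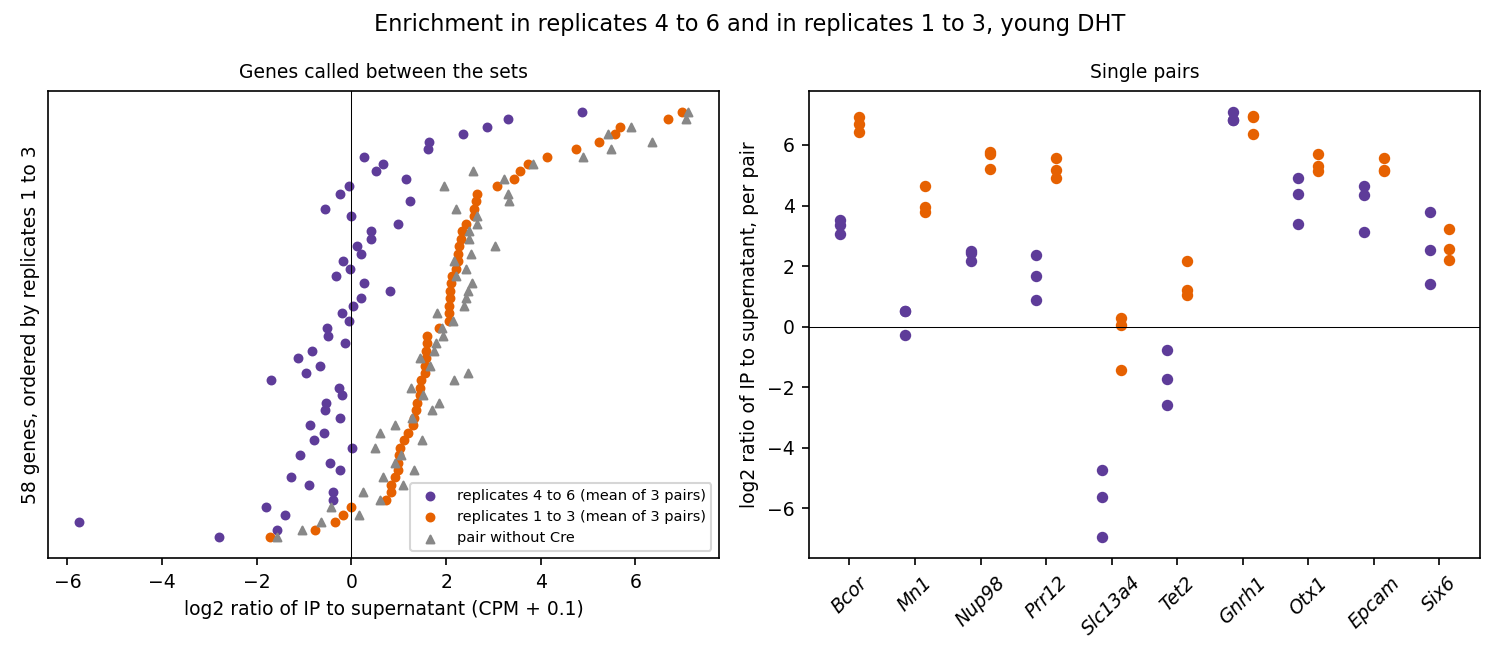
Log2 ratio of IP to supernatant (0.1 CPM added) for the 58 genes called between the replicate sets, as means of replicates 4 to 6 (purple) and 1 to 3 (orange) with the pair without Cre (triangles, left), and the single pairs of 10 genes (right, same colours). The orange points lie close to the triangles and the purple points below them. The pair without Cre, like replicates 1 to 3, lies outside the last 10 sample numbers. Gnrh1, Otx1, Epcam and Six6 were not called between the sets.

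Whether the enrichment of a gene differs with prenatal treatment was tested as young DHT minus young vehicle. No gene of 16178 was called (0 higher and 0 lower, 0%, edgeR), with 587 at an unadjusted p below 0.05. Chance would give 808.9. DESeq2 called 3 higher and limma-voom 0. On simulated data the edgeR test called 30 of 100 genes set to differ 2-fold and 61 of 100 set to differ 4-fold. Differences of these sizes could therefore go uncalled. The gene with the smallest p was Cdh20, a cadherin, with 5.72 ± 2.72 CPM in DHT IP, 4.84 ± 0.75 CPM in DHT supernatant, 0.653 ± 0.5745 CPM in vehicle IP and 4.93 ± 0.93 CPM in vehicle supernatant (difference 3.46 ± 0.70, edgeR adjusted p = 1). With DESeq2 it was called higher, at an adjusted p of 0.000768. Klhdc8a differed by 0.42 ± 0.10 and Bhlhe40, a clock-linked repressor, by -0.53 ± 0.13. Gnrh1 differed by -0.01 ± 0.21.

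Enrichment differed with age, as young DHT minus adult DHT, for 94 of 16007 genes (0.587%), 74 higher in young (0.462%) and 20 lower (0.125%; edgeR). By at least 2-fold, 37 were higher (0.231%) and 9 lower (0.0562%). Nefl differed by 3.92 ± 0.14 (adjusted p = 2.62e-10): its IP had 15010 ± 3661 CPM in young DHT and 962 ± 119 CPM in adult DHT, and its supernatants 727 ± 22.02 and 734 ± 40.5 CPM. Kifc3, a kinesin, differed by 2.88 ± 0.23, with 470 ± 157 CPM in young DHT IP and 69.1 ± 19.1 CPM in adult DHT IP. Pom121, a nucleoporin, differed by 2.77 ± 0.27 and Mdm1 by 2.66 ± 0.38. Ratios without Cre were 3.29 for Kifc3, 2.94 for Pom121 and 4.13 for Mdm1, in a young pair, and no adult pair lacks Cre. With young DHT replicates 1 to 3 alone Mdm1 was not called (edgeR adjusted p = 0.0728).

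Emilin2, a matrix glycoprotein, differed by 6.82 ± 1.41 and the claudin Cldn14 by 4.57 ± 0.95. Their ratios without Cre were 2.62 and 0.52, in a young pair. Each of the 2 genes lost its call in every one of the 6 fits without 1 young DHT replicate, with edgeR adjusted p of up to 0.108 and 0.122. Cldn14 had 6.22 ± 1.87 CPM for the IP and 5.39 ± 0.787 CPM for the supernatant in young DHT and was not called between them. In adult DHT it had 0.0204 ± 0.0259 CPM for the IP and 0.462 ± 0.175 CPM for the supernatant, too low to be tested there, so its difference rests on adult libraries with almost no reads of it. Nefh, Nefm, Tcf20, Yeats2 and Pcsk1n were also higher in young, by 2.23, 1.92, 2.60, 2.35 and 0.99. Of the 74 genes higher in young, 29 were at least 2-fold higher in the IP without Cre, as were 11.2% of all genes tested in young DHT. Over all 74 the median log2 fold change was 0.66 in young DHT and -0.31 in adult DHT. No adult library carries the last 10 sample numbers; with young DHT replicates 1 to 3 alone, an alternative chosen after the data had been seen, 24 genes were higher and 12 lower. Without 1 young DHT replicate, 38 to 56 genes were higher and 7 to 26 lower; the counts without replicate 1, 2, 3 or 6 were 41, 39, 43 and 38 higher and 9, 7, 9 and 8 lower.

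**Figure D5:**
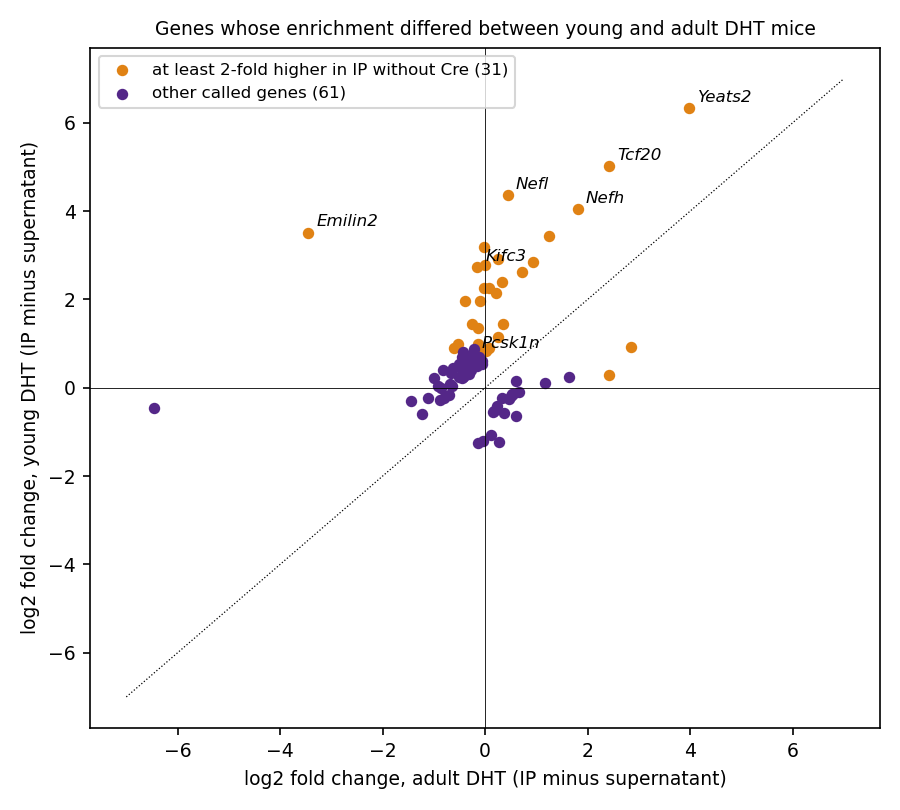
Log2 fold change between IP and supernatant in young DHT (vertical) and adult DHT (horizontal) for 92 of the 94 genes called between the ages (the others were not tested in one of the fits), with 31 at least 2-fold higher in the IP without Cre (orange) and 61 others (purple). Nefl, Kifc3, Yeats2 and Tcf20 stand above the dotted line of equal fold change.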

How the data were processed

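The members and gene lists were chosen with earlier results of these data known. The deposited table gives an estimated count for each of 23284 genes and 48 libraries; 98.49% of values are whole, and all were rounded before testing. Per the labels' protocols, poly(A) RNA was amplified with SMARTer v4, a kit that does not mark strand. Per the submitters' processing notes, mm10 was the build; FastQC 0.11.3, HTSeq 0.6.1, DESeq2 1.14.1, Cuffdiff 2.1.1, Cufflinks, Bowtie2 2.2.1 and TopHat2 2.0.13 are also listed, without saying which program made the table. Amplified reads are not independent molecules.

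IP and supernatant were compared with edgeR 4.0.16 (R 4.3.3; TMM, robust quasi-likelihood F test, Benjamini-Hochberg adjusted p below 0.05) on genes kept by filterByExpr (minimum count 10, total 15), with the replicate number as a block. Differences of enrichment were tested as interactions. CPM used the library total, and ratios per pair and without Cre had 0.1 CPM added. DESeq2 1.42.0 and limma 3.58.1 (voom) were alternatives, and the code was tested on simulated data. Named genes were the 12 largest rises under 2-fold without Cre, the 6 largest at least 2-fold there and the 10 largest falls (mean of at least 5 CPM, 6 of 6 pairs), the 4 smallest adjusted p in each list, the 6 largest differences of each interaction, the 3 smallest p where none was called, and 8 fixed genes. Some genes that this rule selects are not reported here. Other members were named after their values had been seen.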

Additional observations from a re-analysis of the deposited data

Results flagged for a closer look

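In 9 of 152 tests, 1 value lay apart from the other 5 by Dixon's criterion, which chance meets in about 1 of 20 tests. The tests covered the log2 ratios of IP to supernatant of named genes and a few library-level values such as totals. All 9 were log2 ratios. Slc32a1 stood at -3.654 in replicate 1, beside -2.633 to -2.153 in the others. Replicate 1 also had the lowest ratio of Cldn11, a myelin claudin, at -1.869, beside -1.416 to -1.308. In replicate 4, Gal stood at 1.109 (others 0.06854 to 0.407), Acta2 at -4.44 (-1.898 to -0.4138), Clic6 at -2.192 (-0.7863 to -0.3664) and Vgf at -1.057 (-1.991 to -1.74). Ntsr1, a neurotensin receptor, was at -4.694 in replicate 5 (-1.533 to -1.003). In replicate 6, Rpl13 was at 1.306 (0.7504 to 0.888) and Spint2 at 0.5748 (0.9725 to 1.082).

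Enrichment differed between the ages by the interaction test for 11 named genes, as young DHT minus adult DHT on the log2 scale. The filament genes differed by 3.92 (Nefl), 2.23 (Nefh) and 1.92 (Nefm). Emilin2 differed by 6.82 and Cldn14 by 4.57. Kifc3 differed by 2.88, Pom121 by 2.77, Mdm1 by 2.66, Tcf20 by 2.6, Yeats2 by 2.35 and Pcsk1n by 0.989.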

How the results depend on the processing

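Between IP and supernatant, 2042 of the values of named genes across alternatives kept their direction and side of the threshold, 125 lost and 15 gained a call, and 7 changed sign, all in Pgr (-0.076 and -0.084 without replicate 1 or 2, to 0.268 without another replicate, and -0.479 with replicates 4 to 6 alone) and the erythroid gene Alas2 (-0.099, -0.032 and -0.070 without replicate 4, 5 or 6, up to 0.104 without another, and -0.406 with replicates 1 to 3 alone). Genes at least 2-fold lower numbered 1201 with DESeq2. With replicates 4 to 6 alone, 789 genes were higher, 790 lower and 175 at least 2-fold higher, and with replicates 1 to 3 alone 547 were at least 2-fold higher. Leaving out genes changed without Cre gave 106 and 200. Without the replicate block, 2268 genes were higher and 1811 lower. Libraries with 1 number deviated together with correlations of 0.133, 0.127, 0.242, 0.00949, -0.0851 and 0.13 for pairs 1 to 6, and 4 of the 6 correlated best with their own number, a hint from the data and not the design; with deviations taken within each replicate set, correlations were -0.0315, -0.0162 and -0.0273 for pairs 4 to 6 and 0.121, 0.224 and 0.182 for pairs 1 to 3. Without 1 replicate, 1689 to 2165 genes were higher and 1669 to 2075 lower, 246 to 370 and 491 to 551 by at least 2-fold.

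For young DHT minus vehicle, DESeq2 called 3 genes higher. For young minus adult DHT, DESeq2 called 451 higher and 214 lower, all libraries with a replicate block 125 and 35, young replicates 1 to 3 alone 24 and 12, and fits without 1 replicate 38 to 56 and 7 to 26. For replicates 4 to 6 minus 1 to 3, 5 higher and 128 lower were called with no replicate block, 38 lower with RLE size factors, 128 and 432 with DESeq2, 5 and 95 with limma-voom, 4 higher with no filter, and 0 to 7 and 8 to 55 without 1 replicate; in young vehicle mice 3 and 37 were called, and Slc13a4 was at 2.29. The cause was not tested. The single pair without Cre gives no error, and genes with few reads in the IP limit what its falls show.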
